A study of Rattus norvegicus with 8 samples.

Results

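The 37 genes described here encode integrin chains and laminin chains, the receptors and ligands by which cells hold on to basement membrane. They were taken by symbol from the 30560 genes of the deposited list: 18 integrin alpha chains, 8 integrin beta chains, 5 laminin alpha chains, 3 laminin beta chains and 3 laminin gamma chains, by a rule on the symbol that uses no expression value. Nuclei came from nodose ganglia, which hold the cell bodies of vagal sensory neurons, of experimentally naive Long Evans rats aged 8 weeks, 18 labelled male and 18 labelled female. Nuclei were barcoded with the Evercode split-pool kit and their RNA was counted as unique molecular identifiers (UMIs), in 8 sublibraries. The nucleus table divides the data into 12 pools, each with 6 rats and 1 side: 3 male left (ML1 to ML3), 3 male right (MR1 to MR3), 3 female left (FL1 to FL3) and 3 female right (FR1 to FR3). With 3 pools of 6 to a side, left and right pools of a sex draw on the same 18 rats, and the 12 pools are not 12 independent sets of rats. The labels name no treatment and no genotype beyond the strain, and the comparisons below are between classes of nuclei, between sides and between labelled sexes.

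Integrins are receptors made of 1 alpha and 1 beta chain that span the cell membrane and couple matrix outside the cell to the actin cytoskeleton inside it. Laminins are secreted trimers of 1 alpha, 1 beta and 1 gamma chain that assemble into the basement membrane, the sheet of matrix around Schwann cells, satellite glia, vessels and muscle fibres. In peripheral nerve, Schwann cells make laminin that holds the alpha 2 chain, bind it through beta 1 and beta 4 integrins and through dystroglycan, and depend on it to sort and myelinate axons.

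After filters, 36738 nuclei with 139954192 UMIs were kept, with a median of 2680 UMIs per nucleus. Pools held 1738 to 4849 nuclei and 7139364 to 19456287 UMIs. Pools ML1 and FL1 went against their labels: Y-linked transcripts stood at 2.88 CPM (the counts-per-million scale, here of UMIs) in ML1 and 88.6 in FL1, against 84.4 to 91.3 in the other male pools and 2.73 to 3.95 in the other female pools. Of 34795 distinct combinations of well barcodes, 1865 occurred in more than 1 sublibrary, in 3808 nuclei. Nuclei were grouped by clustering without the 37 genes, and clusters were named from marker genes: 24951 neurons, 3998 satellite glia, 2192 myelinating Schwann cells, 829 endothelial cells, 598 skeletal muscle nuclei and 214 mural cells. Another 357 nuclei carried sympathetic neuron or chromaffin-type markers and 3599 stayed unnamed.

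Each class carried the markers of its name, and several also carried those of another. Summed satellite glia markers stood at 1779.9 CPM in satellite glia and 95.3 in neurons, and summed myelinating Schwann markers at 12332 CPM in Schwann nuclei and 433 in neurons. The mural class had a mural marker sum of 8289.7 CPM and an endothelial marker sum of 3155, above the 2771 of the endothelial class, so it is called mural-led below. Satellite glia markers summed to 876 CPM in endothelial nuclei, and myelinating Schwann markers to 2136 CPM in muscle nuclei. Neuron markers summed to 10671 CPM in neurons, 9433.6 in satellite glia, 8271 in muscle and 4882 in endothelial nuclei. In Schwann and mural-led nuclei the neuron sum was 3545 and 1382 CPM. The myelinating Schwann class also held non-myelinating Schwann markers at a sum of 14349 CPM, above its myelinating sum. That sum was 6322 CPM in satellite glia and 4334 in neurons. Its largest parts in Schwann nuclei were Cadm2 (7055 CPM) and Scn7a (5438), whereas Ngfr (248) was below its 984 CPM in neurons. Fibroblast markers summed to 2259 CPM in Schwann nuclei, the highest of the classes. Neutrophil markers did not pass 0.664 CPM in any class and macrophage markers did not pass 82.6 CPM.

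Levels below are CPM of the UMIs summed over the nuclei of a class in a pool. They compare 1 gene between classes, not genes with each other, since they were not divided by transcript length. Of the 37 genes, 27 reached a mean of at least 10 CPM in at least 1 class. Class contrasts were tested with edgeR's quasi-likelihood test on the summed UMIs, with the pool as a block, and p-values were adjusted by Benjamini and Hochberg's method over all genes tested. Folds are class over class, after scaling by trimmed mean of M values (TMM). Nothing in the labels calls the pools separate preparations beyond their rats and sides, so the p-values measure the spread between these pools. That spread is estimated for each gene with information shared over all genes tested. The smallest p-values therefore do not rest on the spread of 1 gene over the pools alone.

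**Figure D1:**
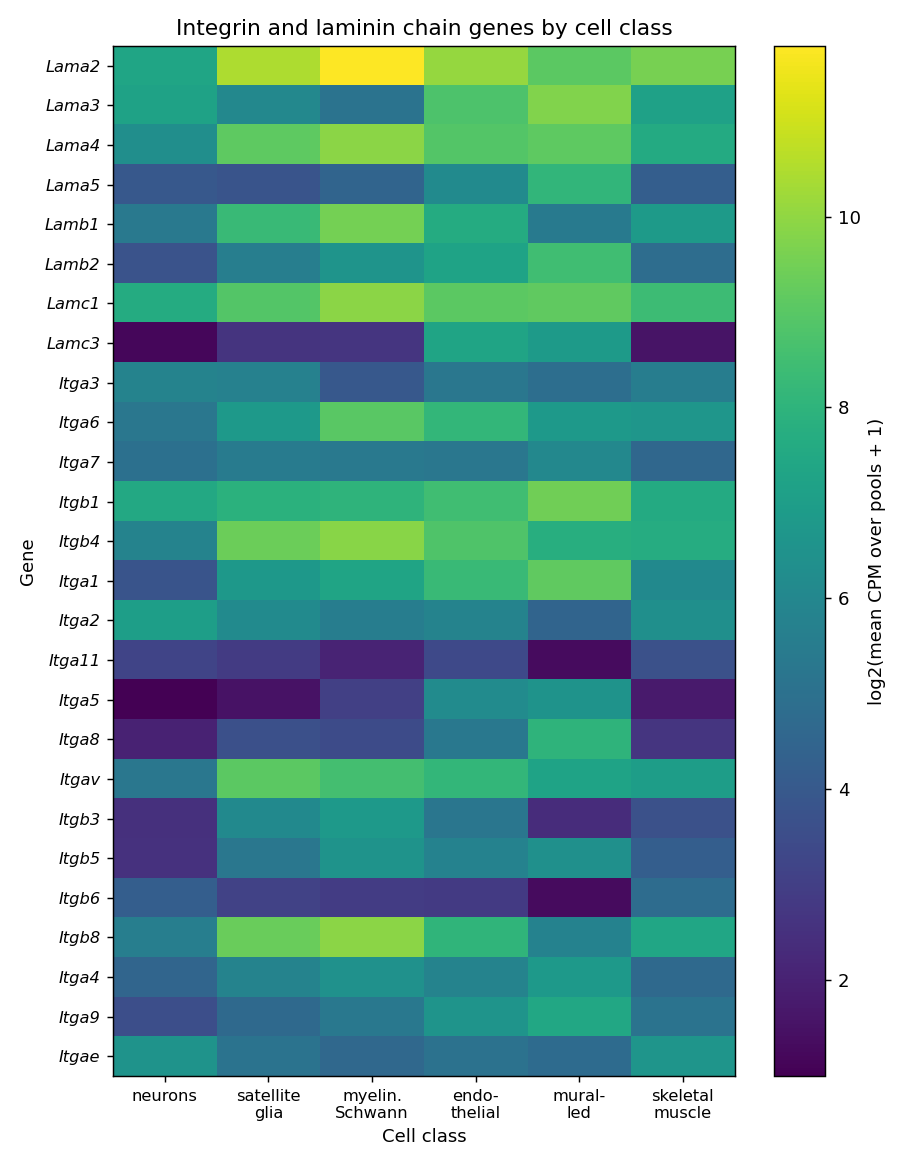
Level of 26 genes that reached 10 CPM (rows) in the 6 classes of nuclei (columns), coloured by log2 of the mean CPM over pools plus 1. Lama2 stood highest in myelinating Schwann nuclei (median 3525 CPM), Lamc3 in endothelial nuclei (166 CPM) and Itga8 in mural-led nuclei (239 CPM).

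Among the laminin alpha chains, Lama2 and Lama4 were higher in glia and in vascular nuclei than in neurons, and highest in Schwann nuclei. Lama3 and Lama5 were highest in mural-led nuclei, and Lama1 was close to 0 throughout. Lama2, the alpha chain of the laminin around Schwann cells and muscle fibres, ranged over pools from 3129.7 to 4086 CPM (median 3525) in myelinating Schwann nuclei, 1194 to 1630.3 CPM (median 1385) in satellite glia and 117 to 224 CPM (median 154) in neurons. Every Schwann value lay above every satellite value, and every satellite value above every neuron value. The level in Schwann nuclei was 19.8-fold that in neurons (log2 fold change 4.31 ± 0.09 SE, adjusted p = 1.55e-40; higher in 12 of 12 pools) and 2.66-fold that in satellite glia (log2 fold change 1.41 ± 0.06 SE, adjusted p = 9.94e-29). Satellite glia were 8.06-fold above neurons (log2 fold change 3.01 ± 0.07 SE, adjusted p = 2.49e-26).

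Lama4, an alpha chain of laminins around vessels and peripheral nerve fibres, was likewise highest in Schwann nuclei. Its level was 806 to 1151 CPM (median 964) in Schwann nuclei, 449.7 to 604 CPM (median 554) in satellite glia, 297 to 579 CPM (median 478) in endothelial nuclei and 54.1 to 125 CPM (median 82.1) in neurons. Schwann nuclei did not overlap with satellite glia, whereas satellite and endothelial nuclei overlapped. Summed over pools, Lama4 was at 549 CPM in mural-led nuclei, beside 562 in satellite glia (mural-led over neurons log2 2.38, adjusted p = 2.05e-67). Against neurons, the log2 fold change was 3.43 ± 0.09 in Schwann nuclei (adjusted p = 8.21e-37), 2.69 ± 0.08 in satellite glia (adjusted p = 9.82e-24) and 2.28 ± 0.09 in endothelial nuclei (adjusted p = 2.04e-41).

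Lama3, the alpha chain of epithelial laminin, had the opposite order in glia and neurons. It stood at 413 to 1181 CPM (median 814) in mural-led nuclei, 251 to 598 CPM (median 439) in endothelial nuclei, 126 to 162 CPM (median 149) in neurons, 46.1 to 88.5 CPM (median 62.9) in satellite glia and 12.7 to 47.8 CPM (median 33.7) in Schwann nuclei. Neurons lay above both glial classes in every pool. The neuron level was 4.72-fold that of Schwann nuclei (log2 fold change -2.24 ± 0.10 SE, adjusted p = 5.79e-26) and 2.63-fold that of satellite glia (log2 fold change -1.40 ± 0.06 SE, adjusted p = 2.91e-19). Endothelial nuclei in turn were 2.37-fold above neurons (log2 fold change 1.25 ± 0.08 SE, adjusted p = 1.02e-24). Lama5, an alpha chain of vessel basement membrane, was at 179 to 529 CPM (median 241) in mural-led nuclei, 36.5 to 105 CPM (median 73.6) in endothelial nuclei and 10.9 to 18.9 CPM (median 14.9) in neurons. Its groups did not overlap, and mural-led nuclei were 3.41-fold above endothelial nuclei (log2 fold change 1.77 ± 0.20 SE, adjusted p = 1.58e-11). For Schwann nuclei against neurons, the Lama5 difference of 0.21 ± 0.17 did not pass the test (adjusted p = 0.266).

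Among the beta and gamma chains, Lamb1 was highest in Schwann nuclei and Lamb2 and Lamc3 in vascular nuclei, whereas Lamc1 was above neurons in both. Lamb1, the beta chain paired with Lama2 and Lamc1 in many laminins, ranged from 573 to 861 CPM (median 738) in Schwann nuclei, 278 to 352 CPM (median 322) in satellite glia, 95.9 to 284 CPM (median 210.1) in endothelial nuclei and 29.97 to 47.9 CPM (median 39.5) in neurons. Schwann nuclei were the highest in every pool, 16.5-fold above neurons (log2 fold change 4.04 ± 0.07 SE, adjusted p = 2.01e-44). Lamb2, the beta chain of vessel and synaptic laminins, was instead highest in mural-led nuclei, at 207 to 530.0 CPM (median 336), then in endothelial nuclei at 109 to 211 CPM (median 150.1), Schwann nuclei at 84.0 to 135 CPM (median 93.5) and neurons at 10.3 to 14.3 CPM (median 12.5). Mural-led nuclei overlapped with endothelial nuclei only at the edge of their ranges and were 2.37-fold above them (log2 fold change 1.25 ± 0.15 SE, adjusted p = 1.89e-10). Against neurons the log2 fold change of Lamb2 was 4.35 ± 0.18 in mural-led nuclei and 3.24 ± 0.14 in endothelial nuclei (adjusted p = 2.97e-125 and 2.02e-38).

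Lamc1, the gamma chain of most laminins, was present in every class, from 182 to 219 CPM (median 198) in neurons and 393 to 532 CPM (median 486) in satellite glia up to 811 to 1208 CPM (median 942) in Schwann nuclei. The Schwann level was 4.20-fold that of neurons (log2 fold change 2.07 ± 0.06 SE, adjusted p = 1.32e-34), with no overlap between the classes. Summed over pools, Lamc1 was at 548 CPM in endothelial and 565 in mural-led nuclei, beside 484 in satellite glia. Its difference between mural-led and endothelial nuclei did not pass the test (log2 -0.02, adjusted p = 0.937). Lamc3, a gamma chain, reached 74.1 to 249 CPM (median 166) in endothelial nuclei and 0.707 to 2.06 CPM (median 1.21) in neurons, and it stayed at or under 13.8 CPM in every pool of both glial classes. Every endothelial pool lay above every glial and neuronal one, and the level was 94.8-fold that of neurons (log2 fold change 6.57 ± 0.18 SE, adjusted p = 3.50e-53). Within the vascular subclusters, each cluster of nuclei summed over pools, Lamc3 was at 360.3, 329 and 314 CPM in those led by Adgrl4, Abcg2 and Notch3, and at 8.57 CPM in the one led by the smooth muscle genes Myh11 and Acta2.

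Promoter sequences are shown for 2 genes that were high in glia (Lama2 and Itgb8) and 2 that were high in a few neuron subclusters (Itga2 and Itgae), so that the stretches before genes with opposite patterns can be read side by side. They are the 250 bases before the gene start, read 5′ to 3′ on the gene's strand, from RefSeq's table of build GRCr8, which held 28 of the 37 genes. Capitals mark the GC box, whose letters are GGGCGG on this strand or on the other one. They also mark the SOX core ACAAAG, the letters bound by SOX factors such as Sox10 of glia.
Lama2 (GRCr8 chr1:19491896-19492145, plus strand): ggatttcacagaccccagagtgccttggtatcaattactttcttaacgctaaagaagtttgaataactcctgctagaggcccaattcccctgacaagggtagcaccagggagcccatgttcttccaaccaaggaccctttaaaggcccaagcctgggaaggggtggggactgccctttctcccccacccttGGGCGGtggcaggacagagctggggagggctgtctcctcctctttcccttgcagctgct
Itgb8 (GRCr8 chr6:146351246-146351495, minus strand): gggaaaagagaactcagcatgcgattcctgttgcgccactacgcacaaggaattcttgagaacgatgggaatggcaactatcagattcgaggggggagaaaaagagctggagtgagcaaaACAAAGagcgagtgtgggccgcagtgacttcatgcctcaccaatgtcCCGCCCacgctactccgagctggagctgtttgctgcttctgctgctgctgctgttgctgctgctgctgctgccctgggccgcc
Itga2 (GRCr8 chr2:48354510-48354759, minus strand): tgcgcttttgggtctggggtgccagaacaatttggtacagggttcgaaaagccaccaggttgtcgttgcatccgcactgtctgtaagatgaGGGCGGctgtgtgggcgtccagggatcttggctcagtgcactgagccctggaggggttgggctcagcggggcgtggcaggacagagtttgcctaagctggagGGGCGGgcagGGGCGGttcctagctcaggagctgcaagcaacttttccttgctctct
Itgae (GRCr8 chr10:58203118-58203367, plus strand): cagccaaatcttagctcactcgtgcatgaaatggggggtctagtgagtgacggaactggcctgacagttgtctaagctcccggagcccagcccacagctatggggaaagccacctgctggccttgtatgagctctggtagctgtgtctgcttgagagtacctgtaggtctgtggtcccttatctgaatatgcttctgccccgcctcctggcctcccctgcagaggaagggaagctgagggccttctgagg
GGGCGG, on either strand, was found in 14 of the 28 promoters and in 30.5% of 33469 promoters of the same length, and ACAAAG in 4 of the 28 (Itga9, Itgb1, Itgb7 and Itgb8) and 16.3% of all. The other SOX core searched, ACAATG, was in 0 of the 28 and 11.1% of all, TATAAA was in 2 and 12.9%, and the AP-1 site TGACTCA was in 2 and 4.05%. Median GC content was 58.2% for the 28 promoters and 51.2% for all 33469. Itga2 and Itgae, whose levels peaked in the same neuron subcluster, shared none of these letters, since no searched motif was found before Itgae. A match is a run of letters in this window and says nothing about a factor's binding.

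Of the laminin-binding integrin chains, Itga6 was higher in Schwann nuclei than in satellite glia and Itga3 lower. The alpha 6 chain pairs with beta 1 or beta 4 and is the laminin receptor of Schwann cells and endothelium. Itga6 stood at 435 to 624 CPM (median 509) in Schwann nuclei, 225 to 373 CPM (median 278) in endothelial nuclei, 92.9 to 128 CPM (median 113) in satellite glia and 28.3 to 51.3 CPM (median 37.5) in neurons. None of these ranges overlapped. Schwann nuclei were 4.68-fold above satellite glia (log2 fold change 2.23 ± 0.06 SE, adjusted p = 2.41e-36), the largest fold of the 20 genes tested in that contrast, and 11.8-fold above neurons (log2 fold change 3.56 ± 0.07 SE, adjusted p = 4.86e-41).

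Its partner Itgb4, the beta chain with a long cytoplasmic tail that occurs with alpha 6, was high in both glial classes. The range was 835 to 1069 CPM (median 900.2) in Schwann nuclei, 544 to 782 CPM (median 643) in satellite glia, 345 to 551 CPM (median 458) in endothelial nuclei and 40.3 to 72.6 CPM (median 58.9) in neurons. Schwann nuclei were 14.8-fold and satellite glia 10.7-fold above neurons (log2 fold changes 3.88 ± 0.08 and 3.42 ± 0.07, adjusted p = 2.10e-40 and 1.69e-27). The step from satellite glia to Schwann nuclei was much smaller for Itgb4 (log2 0.57 ± 0.06) than for Itga6 (log2 2.23 ± 0.06), although the difference between the genes was not itself tested.

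Itga3, another laminin-binding alpha chain, ran the other way. It was at 49.7 to 63.2 CPM (median 54.6) in neurons, 40.9 to 64.6 CPM (median 54.3) in satellite glia and 0 to 29.1 CPM (median 15.3) in Schwann nuclei. Neurons and satellite glia overlapped almost wholly, and both lay above every Schwann pool. The level in Schwann nuclei was 2.84-fold below that of satellite glia (log2 fold change -1.51 ± 0.15 SE, adjusted p = 9.63e-13). Itga7, the laminin receptor chain of muscle, was at 0 to 65.4 CPM (median 22.8) in the 6 pools with at least 10 muscle nuclei and 25.2 to 42.3 CPM (median 29.0) in neurons, with overlapping ranges; the difference of -0.12 ± 0.30 did not pass the test (adjusted p = 0.868). Against neurons its log2 fold change was 0.78 ± 0.28 in mural-led nuclei (adjusted p = 0.013), a call lost under 9 of 21 alternatives (adjusted p from 0.00525 to 0.318). It was 0.40 ± 0.06 in satellite glia (adjusted p = 8.41e-07). In Schwann nuclei it was 0.24 ± 0.13 (adjusted p = 0.0779), and 0.29 without the subclusters rich in glial markers described below (adjusted p = 0.0438). Itgb1, the beta chain shared by most integrins, was highest in mural-led nuclei at 394 to 1058 CPM (median 685), against 157 to 209.7 CPM (median 175) in neurons and 186 to 319 CPM (median 258) in Schwann nuclei. It was 2.80-fold above neurons there (log2 fold change 1.49 ± 0.12 SE, adjusted p = 1.32e-31), and 1.28-fold in Schwann nuclei (log2 fold change 0.35 ± 0.07 SE, adjusted p = 6.76e-06).

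**Figure D2:**
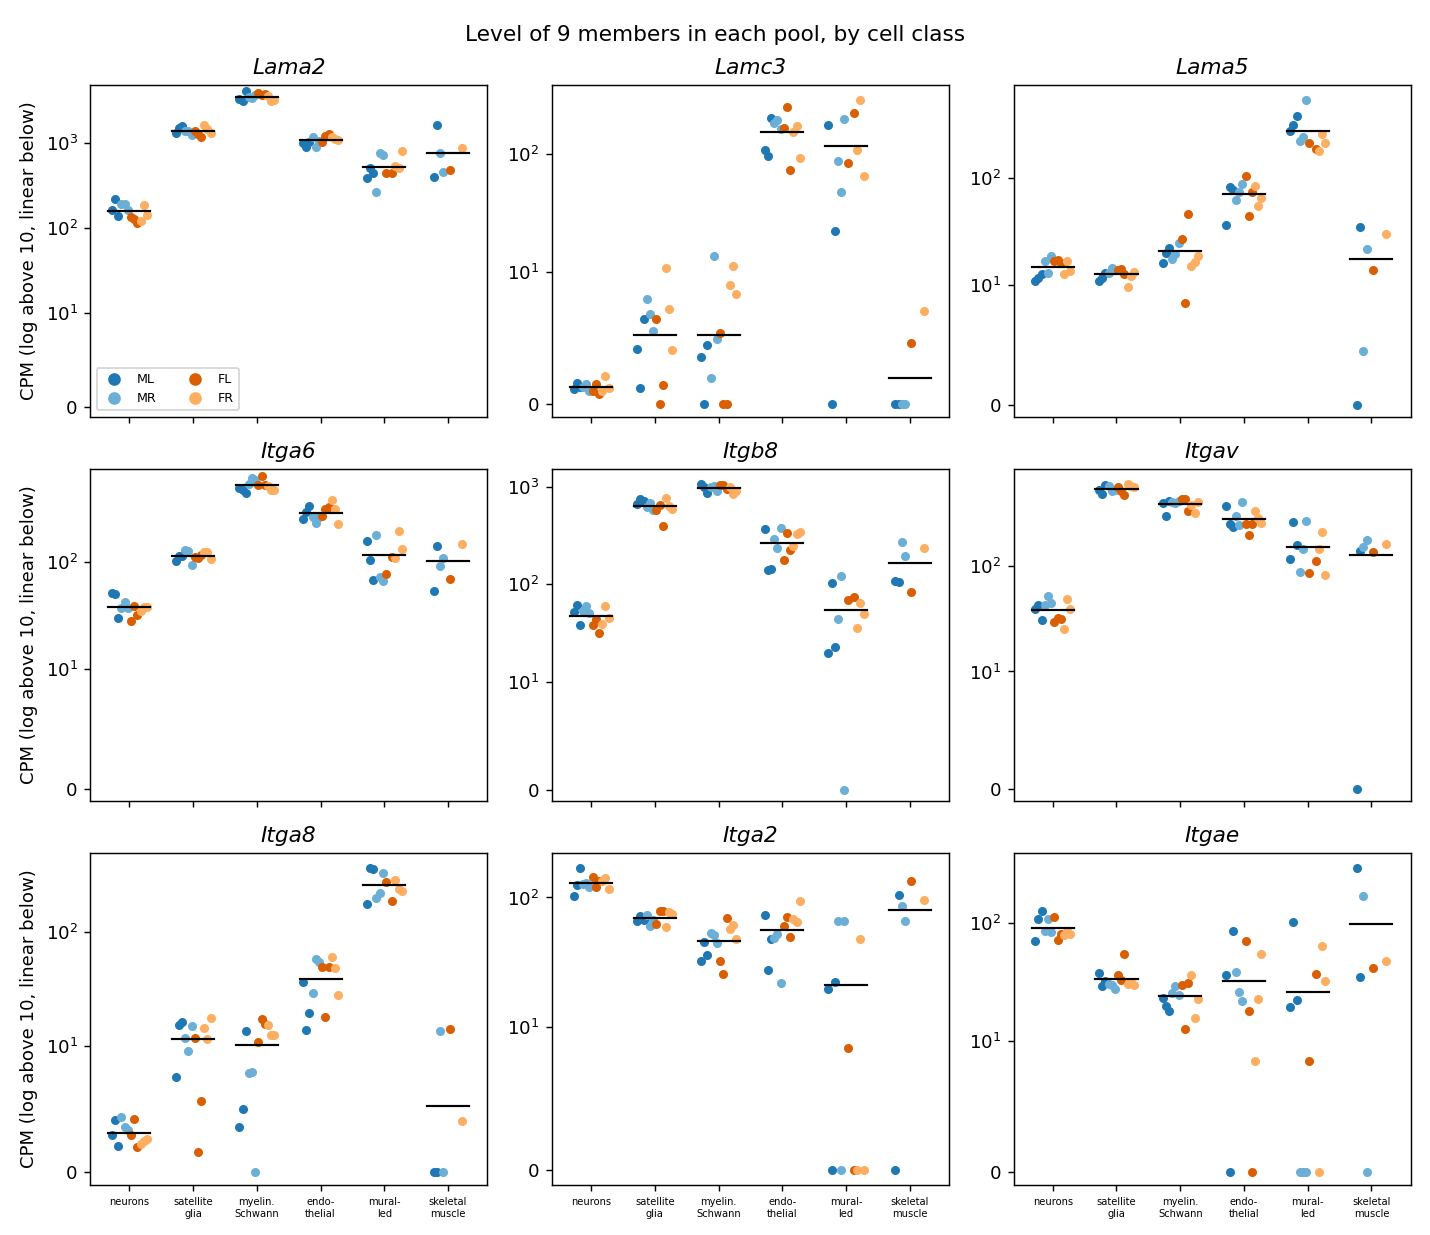
Level of 9 genes in each pool (points, coloured by labelled sex and side) and its mean over pools (black line) by class of nuclei, in CPM on an axis that is log above 10 and linear below. For Lama2, Itga6 and Itgb8 the Schwann points (lowest 3129.7, 435 and 844 CPM) lie above all satellite points, while the satellite points of Itgav (lowest 469 CPM) lie above all Schwann points.

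The alpha v chain and its beta partners, which bind fibronectin, vitronectin and latent TGF-beta, were higher in both glial classes than in neurons, apart from Itgb6. Itgav was the chain of this group called higher in satellite glia than in Schwann nuclei: 469 to 591 CPM (median 537) in satellite glia, 294 to 429 CPM (median 398) in Schwann nuclei, 195 to 404 CPM (median 251) in endothelial nuclei and 25.3 to 51.3 CPM (median 38.7) in neurons. No satellite pool fell as low as the highest Schwann pool. The fold over neurons was 12.8-fold in satellite glia (log2 fold change 3.68 ± 0.07 SE, adjusted p = 2.54e-27), and satellite glia exceeded Schwann nuclei 1.34-fold (log2 fold change -0.42 ± 0.06 SE, adjusted p = 3.76e-09 for Schwann over satellite).

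Itgb8, the beta partner of alpha v that activates latent TGF-beta, had its highest level in Schwann nuclei, 844 to 1057 CPM (median 985), followed by satellite glia at 398 to 765 CPM (median 642) and neurons at 31.3 to 61.5 CPM (median 47.4). The 3 classes did not overlap, and the folds over neurons were 17.9-fold and 12.1-fold (log2 4.16 ± 0.08 and 3.60 ± 0.06, adjusted p = 9.64e-43 and 1.20e-28). Itgb3, the beta chain of the vitronectin receptor, was at 67.9 to 167 CPM (median 105) in Schwann nuclei, 53.6 to 80.9 CPM (median 68.1) in satellite glia and 2.53 to 6.47 CPM (median 4.97) in neurons. Its Schwann over neuron fold of 20.2-fold was the largest among the genes tested in that contrast (log2 fold change 4.34 ± 0.14 SE, adjusted p = 1.02e-32). Itgb5, a second vitronectin-binding beta chain, was at 58.2 to 115 CPM (median 92.2) in Schwann nuclei and 2.47 to 6.51 CPM (median 5.35) in neurons, 16.6-fold apart (log2 fold change 4.05 ± 0.14 SE, adjusted p = 8.85e-32). It was vascular too: summed over pools, it was at 86.3 CPM in mural-led, 57.1 in endothelial and 37.9 in satellite nuclei. Mural-led nuclei exceeded neurons in Itgb5 by a log2 fold change of 3.72 (adjusted p = 6.18e-34). Among these beta chains Itgb6 was the one lower in glia, at 14.3 to 20.6 CPM (median 18.1) in neurons, 2.52 to 12.7 CPM (median 7.96) in satellite glia and 0 to 19.9 CPM (median 4.36) in Schwann nuclei. Neurons exceeded satellite glia 2.36-fold in it (log2 fold change -1.24 ± 0.13 SE, adjusted p = 1.21e-09).

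Itga5 and Itga8, alpha chains that bind the RGD sequence of fibronectin and of nephronectin, marked vascular nuclei. Itga5 was at 33.9 to 173 CPM (median 61.1) in endothelial nuclei and 0.455 to 1.64 CPM (median 0.973) in neurons, without overlap, a 50.9-fold difference (log2 fold change 5.67 ± 0.26 SE, adjusted p = 2.19e-36). It was at 0 to 211 CPM (median 96.4) in mural-led nuclei, and within the endothelial subclusters it was at 218 and 159.9 CPM in those led by Eln and by AABR07005844.1, Pgm5 and Eln. Itga8 was at 175 to 362 CPM (median 239) in mural-led nuclei, 13.8 to 59.4 CPM (median 42.4) in endothelial nuclei and 2.00 to 4.32 CPM (median 2.92) in neurons. Every mural-led pool lay above every endothelial one, and the fitted difference was 5.81-fold (log2 fold change 2.54 ± 0.22 SE, adjusted p = 1.39e-15). In the Myh11-led and Notch3-led subclusters of that class Itga8 was at 291 and 175 CPM.

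Of the collagen-binding alpha chains, Itga1 was vascular and glial and Itga2 was neuronal. Itga1 stood at 449.7 to 859.6 CPM (median 514) in mural-led nuclei, 229.5 to 579.9 CPM (median 296) in endothelial nuclei, 115 to 189 CPM (median 164) in Schwann nuclei, 78.1 to 132 CPM (median 103) in satellite glia and 9.78 to 17.4 CPM (median 12.4) in neurons. Neurons lay below every pool of the other 4 classes. The log2 fold changes over neurons were 4.90 ± 0.16, 4.21 ± 0.11, 3.41 ± 0.09 and 2.88 ± 0.07 in that order (adjusted p = 8.72e-202, 2.60e-56, 9.90e-36 and 4.06e-26). Itga2 was at 103 to 169 CPM (median 128) in neurons, 59.0 to 79.0 CPM (median 69.4) in satellite glia, 25.5 to 69.7 CPM (median 46.3) in Schwann nuclei and 0 to 66.1 CPM (median 8.48) in mural-led nuclei. Neuron pools were all above satellite pools, 2.07-fold on average (log2 fold change -1.05 ± 0.06 SE, adjusted p = 7.73e-16), and 3.13-fold above Schwann nuclei (log2 fold change -1.65 ± 0.10 SE, adjusted p = 2.32e-21). Itga11 stayed at or under a median of 9.24 CPM in the 6 classes.

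Itga4 and Itga9, alpha chains that bind VCAM1, fibronectin and tenascin, were lower in neurons than in the glial and vascular classes. Itga4 was at 59.8 to 140.5 CPM (median 82.3) in Schwann nuclei and 18.2 to 27.3 CPM (median 20.9) in neurons (log2 fold change 1.80 ± 0.11 SE, adjusted p = 1.56e-21). Between muscle and neurons the Itga4 difference did not pass the test (log2 0.40, adjusted p = 0.428). Itga9 was at 37.2 to 331 CPM (median 176) in mural-led nuclei, 41.5 to 221 CPM (median 77.3) in endothelial nuclei and 6.19 to 14.6 CPM (median 11.01) in neurons, and endothelial nuclei exceeded neurons 6.21-fold (log2 fold change 2.63 ± 0.18 SE, adjusted p = 6.69e-25). In the 2 endothelial subclusters with Eln among their leading genes Itga9 was at 360.1 and 359.8 CPM. Itgae, known as the alpha chain of the E-cadherin receptor of T cells in epithelia, was at 71.1 to 128 CPM (median 84.5) in neurons, 27.6 to 55.0 CPM (median 31.3) in satellite glia and 12.7 to 36.0 CPM (median 23.9) in Schwann nuclei. Neurons exceeded satellite glia 3.06-fold and Schwann nuclei 4.33-fold (log2 fold changes -1.61 ± 0.08 and -2.12 ± 0.12, adjusted p = 4.58e-17 and 2.87e-22). T or NK cell markers summed to 23.7 CPM in neurons, of which Skap1 alone held 22.1 and Cd3e 0.27. The gene Haspin lies within the bounds of Itgae in RefSeq's annotation, as Pelo does within Itga1, and no source used here states how reads of overlapping genes were counted.

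The other 10 genes did not reach 10 CPM in any class: Itga10, Itga2b, Itgad, Itgal, Itgam, Itgax, Itgb2, Itgb7, Lama1 and Lamb3. Of these, 7 are chains of blood cells, namely the leukocyte chains Itgad, Itgal, Itgam, Itgax, Itgb2 and Itgb7 and the platelet chain Itga2b. Their highest class mean was 8.92 CPM, for Itga2b in mural-led nuclei, where it rested on 4 UMIs. In neurons Itgb2, the beta chain shared by most leukocyte integrins, had 39 UMIs in all (0.403 CPM, exact Poisson 95% interval 0.287 to 0.551, for counting error only), and Lamb3 had 96. Lama1, the alpha chain of embryonic laminin, had 27 UMIs in neurons, 10 in satellite glia and 0 in endothelial nuclei, where 0 UMIs allow a level of up to 1.502 CPM.

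Counted over the set, integrin and laminin genes were more often higher than lower outside neurons. In Schwann nuclei against neurons, 24 of the 37 genes passed the filter on low counts and 22 of those were called at an adjusted p under 0.05, 16 higher and 6 lower; 71.6% of all genes (33% higher, 38.5% lower) were called in that contrast. The median log2 fold change was 1.94 for the tested members and -0.06 for all genes tested. In satellite glia against neurons 24 of 24 tested members were called, 17 higher and 7 lower, beside 74.6% of all genes (40.1% higher, 34.5% lower), with medians of 1.32 and 0.05. In endothelial nuclei against neurons 24 of 26 were called, 20 higher and 4 lower, beside 56.7% of all genes (23.7% higher, 33% lower), with medians of 2.24 and -0.12. In mural-led nuclei against neurons, over the 11 pools with at least 10 such nuclei, 21 of 24 were called, 16 higher and 5 lower, beside 50.2% of all genes (16.8% higher, 33.4% lower), with medians of 1.29 and -0.36. With 50.2% to 74.6% of all genes called, the number of calls by itself says little about these genes. A member that passed the filter only through a class where it is high had to differ, so these counts describe the tested members and not the whole set.

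The glial classes and the vascular classes also differed from each other. Between Schwann nuclei and satellite glia 19 of 20 tested members were called, 14 higher and 5 lower in Schwann nuclei, beside 66.1% of all genes (33.6% higher, 32.5% lower), with medians of 0.66 and 0.03. Those lower in Schwann nuclei were Itga3, Lama3, Itga2, Itgav and Itgae. With classes from coarser clusters (Leiden resolution 0.5), Itga2 turned to 0.13 and Itgae to -0.05, neither called (adjusted p = 0.354 and 0.810). The Itgae call was also lost without FR2, at Leiden resolution 2 and with the members among the clustering genes (adjusted p = 0.0516, 0.0807 and 0.157). Between mural-led and endothelial nuclei 10 of 13 were called, 6 higher and 4 lower, beside 46.7% of all genes (22.4% higher, 24.3% lower), with medians of 0.21 and 0.02. Higher in mural-led nuclei were Itga8, Lama5, Lamb2, Itgb1, Lama3 and Itga1, and lower were Itga6, Itgb4, Itgav and Lama2. The Itga1 call was lost with finer clusters (Leiden resolution 2, log2 0.28, adjusted p = 0.0933). Itga6 was at 66.1 to 191 CPM (median 107) in mural-led and 225 to 373 CPM (median 278) in endothelial nuclei (log2 fold change -1.26 ± 0.18 SE, adjusted p = 3.46e-08), with no overlap between the classes.

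**Figure D3:**
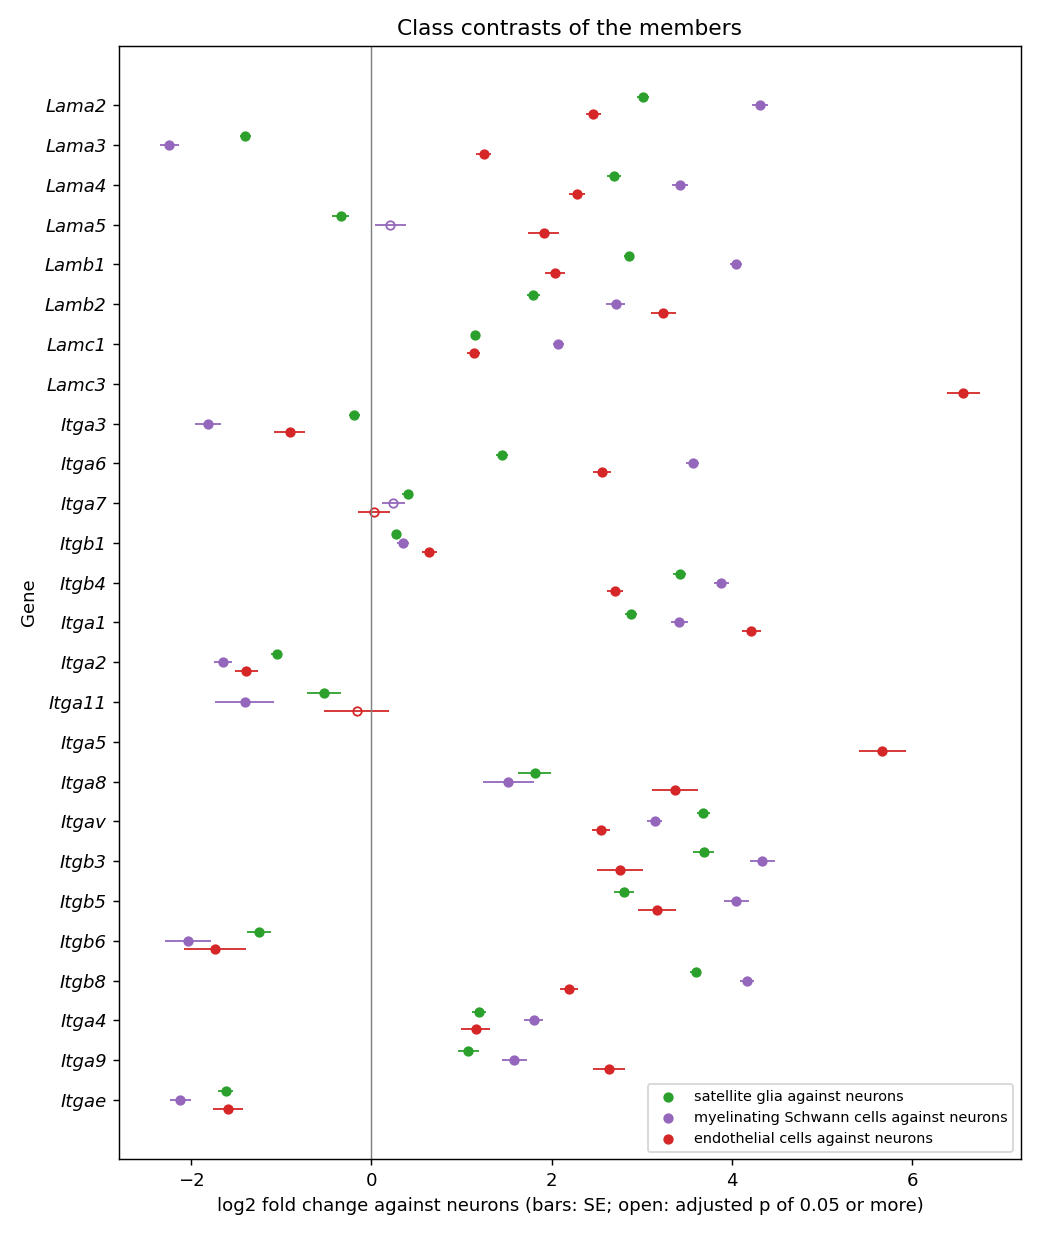
Log2 fold change of each tested integrin and laminin gene against neurons (points, with the SE as bars) in satellite glia, myelinating Schwann and endothelial nuclei; open points did not pass the test and the grey line marks no difference. Itgae, Itga2, Itgb6, Itga3 and Itga11 lie left of the line in all 3 classes, with Itga11 an open point in endothelial nuclei. Lama3 lies left of it in both glial classes (log2 -1.40 and -2.24) and right of it in endothelial nuclei (log2 1.25).

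RNA of other classes was counted in every class, and for several members it stood near the level measured. Prx, a myelin gene that neurons do not make, was counted in neurons at 1.65% of its level in Schwann nuclei, and Mbp at 3.51%. For Lama2, Itgb8, Itgb4, Lamb1 and Itgb3 the neuron level was 4.57%, 4.95%, 6.13%, 5.35% and 4.35% of the Schwann level. Apoe and Kcnj10, genes of satellite glia, were counted in neurons at 4.69% and 5.22% of their satellite level. The values for these 5 members in neurons are therefore of the size of the glial RNA found there, and how much of them neurons make was not tested. In endothelial nuclei Prx was at 15.2% of its Schwann level and Apoe at 40.7% of its satellite level. Neuron markers, given above, were also counted in every other class. The part of neuronal RNA in the levels of Itga2, Itga3, Itga7, Itgae and Lama3 outside neurons was not tested.

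An added comparison, chosen after the data were seen, left out the 4 neuron subclusters and 2 endothelial subclusters in which glial markers were highest. The endothelial over neuron log2 fold change of Itgb8 then went from 2.19 to 1.37, that of Lamb1 from 2.04 to 1.26 and that of Itgb3 from 2.76 to 1.31. Lamc3 moved from 6.57 to 6.97 and Itga5 from 5.67 to 6.10. In the 2 subclusters left out, Itgb8 had been at 520.3 and 449 CPM, against 64.3 in the Adgrl4-led subcluster and 33.5 in the Eln-led one. Between mural-led and endothelial nuclei, the Lama2 difference went from -1.09 to -0.48 and that of Itgb4 from -1.15 to -0.56. Lama4 in that contrast went from 0.21, not called (adjusted p = 0.164), to 0.58, called (adjusted p = 1.49e-04). For satellite glia over neurons, Itgav went from 3.68 to 4.05, and the calls of Itga3 and Itga11 were lost (adjusted p = 0.414 and 0.452).

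Skeletal muscle nuclei, of which 415 of 598 were in pool FR2, had 16 of 24 tested members called against neurons, 14 higher and 2 lower, beside 14.4% of all genes (8.46% higher, 5.91% lower), with medians of 1.22 and -0.04. Lama2, the chain whose loss causes a congenital muscular dystrophy, was at 401 to 1633 CPM (median 626) over the 6 pools with at least 10 muscle nuclei, all above the neuron pools (log2 fold change 1.94 ± 0.14 SE, adjusted p = 8.73e-43). Itga1 was at 0 to 174 CPM (median 58.1) (log2 fold change 2.11 ± 0.26 SE, adjusted p = 1.78e-14). Without pool FR2 the number of members called was 10. Muscle nuclei held Prx at 15.3% of its Schwann level, beside 23.0% for Lama2, 21.6% for Itgb8 and 25.3% for Itgb4. How far Schwann RNA makes up these muscle values was not tested.

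Among neurons, nodose-like subclusters (3523 nuclei, named from markers of placode-derived vagal neurons) were set against jugular-like ones (2365 nuclei, with markers of crest-derived neurons of the adjoining jugular ganglion). The nodose-like ones were led by Itm2a, Ntsr1 and Cysltr2. The other 19063 neurons met neither naming rule and were left out, so the contrast does not cover all nodose neurons. The median nucleus had 6496 UMIs in nodose-like and 2972 in all neurons, and the part of depth in the naming was not tested. Of 18 tested members 16 were called, 5 higher in nodose-like neurons and 11 lower, beside 51.7% of all genes (25.6% higher, 26.1% lower), with medians of -0.40 and 0.00. Itga2 was at 216 to 287 CPM (median 232) in nodose-like and 0 to 44.0 CPM (median 12.5) in jugular-like neurons, with no overlap between pools. Its 16.4-fold difference was the largest of the set (log2 fold change 4.03 ± 0.14 SE, adjusted p = 7.66e-23; higher in 12 of 12 pools). Itgae followed at 131 to 226 CPM (median 163) and 9.98 to 47.8 CPM (median 22.6), again without overlap (log2 fold change 2.68 ± 0.11 SE, adjusted p = 8.79e-21). The nodose-like subclusters differed in both genes. Summed over pools, Itga2 was at 358 and 299 CPM in the Ntsr1-led and Itm2a-led ones and below 295 CPM in the Cysltr2-led one. Itgae was at 351 CPM in the Ntsr1-led, 129 in the Cysltr2-led and below 129 in the Itm2a-led subcluster. Itga4, Lamb2 and Lama3 were higher in nodose-like neurons too, with log2 fold changes of 1.19 ± 0.18, 0.96 ± 0.20 and 0.43 ± 0.07. The Itga4 call was lost when the members were allowed among the clustering genes (log2 0.43, adjusted p = 0.0745).

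Lama4 was the leading gene of the jugular-like side, at 95.5 to 341 CPM (median 269) there and 22.5 to 46.6 CPM (median 33.3) in nodose-like neurons. The pools did not overlap, and the difference was 7.47-fold (log2 fold change -2.90 ± 0.11 SE, adjusted p = 1.14e-21). The jugular-like subclusters were not alike in Lama4. Summed over pools, the one led by Tac1 and Calca was at 412 CPM. The next highest neuron subclusters, at 242 and 229 CPM, were not jugular-like, and the other jugular-like ones were lower. Itgav and Itga6 were also lower in nodose-like neurons, at 11.2 to 22.6 CPM (median 15.4) against 24.2 to 79.4 CPM (median 38.3) and at 25.5 to 48.1 CPM (median 31.1) against 34.5 to 99.2 CPM (median 78.7) (log2 -1.40 ± 0.13 and -1.23 ± 0.11). The summed satellite glia markers were 41.1 CPM in nodose-like and 96.7 in jugular-like neurons, and the median nucleus had 6496 and 2828 UMIs. Glial members such as Itgb8, Lamb1, Itgb4 and Lama2 had log2 fold changes of -0.93 ± 0.10, -0.86 ± 0.12, -0.83 ± 0.09 and -0.80 ± 0.09, and the part of glial RNA and depth in those differences was not tested.

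Across the 25 neuron subclusters the levels are given as a description, with no test, since the subclusters come from the same nuclei. They include the 357 nuclei with sympathetic neuron or chromaffin-type markers (n20, led by Ddc), which are not among the 24951 neurons. Itga2 was highest in the subcluster led by Ntsr1, Gpr65 and Cyp26b1, at 284 to 467 CPM (median 345) over pools. It was at 299 CPM in the nodose-like subcluster led by Itm2a and S1pr3, 295 in the one led by Tafa4 and Esr1 and 239 in the one led by Hmcn1 and Agtr1a, against a median of 25.8 CPM over the 25. Itgae had its highest level in the same Ntsr1-led subcluster, at 256 to 436 CPM (median 364), and was at 304 CPM in the Gdpd4-led one, with a median of 24.7 CPM over the 25. The pools of the Ntsr1-led subcluster lay wholly above those of 21 of the 24 others for Itga2 and 23 of 24 for Itgae. In the Tafa4-led subcluster, where Itga2 was high, Itgae was at 88.3 CPM, so the genes did not share all of their subclusters.

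**Figure D4:**
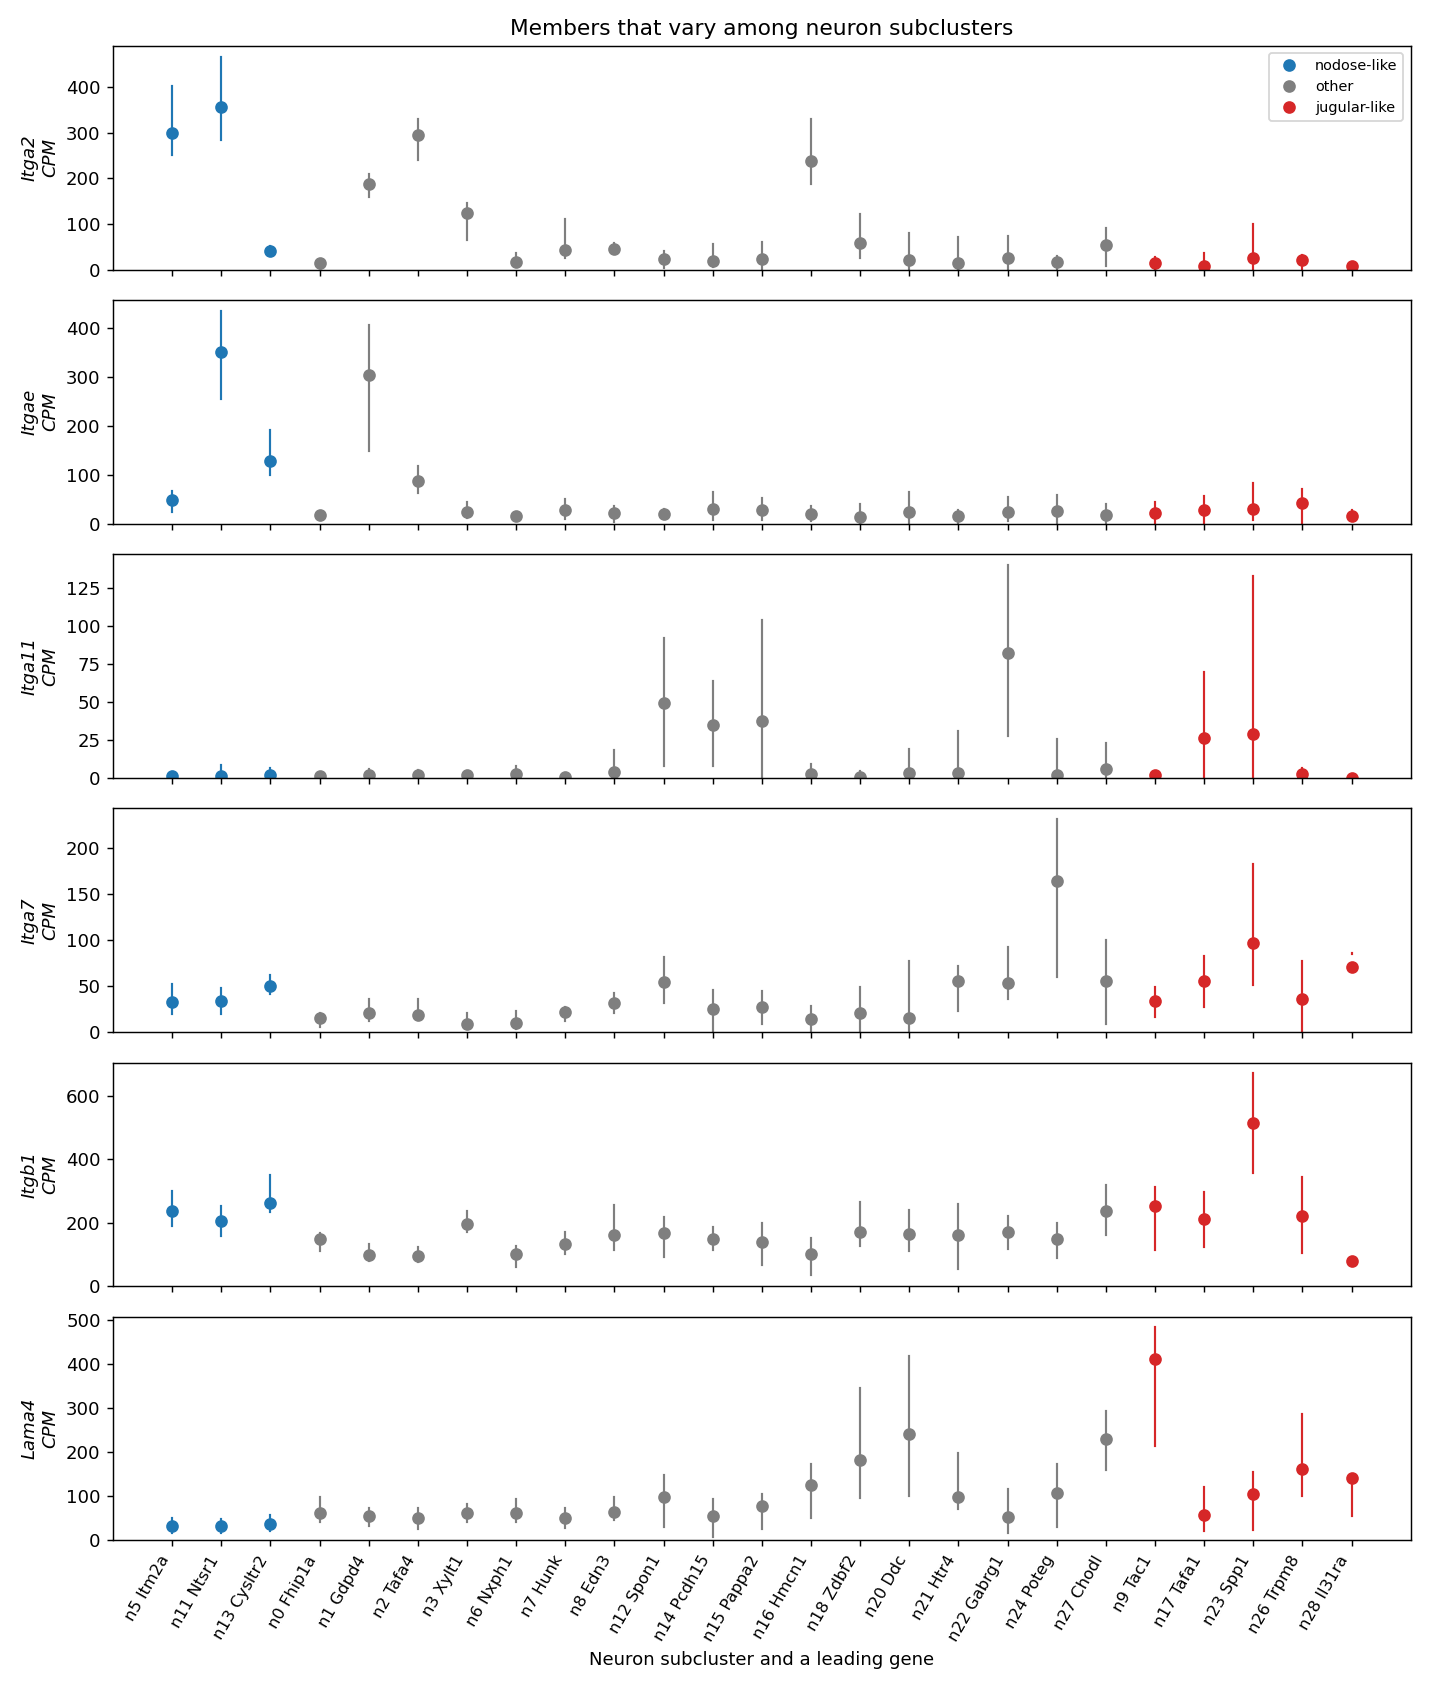
Level of 6 genes (panels, CPM) in the 25 neuron subclusters (horizontal axis, with a leading gene of each), coloured as nodose-like, jugular-like or other. Dots are UMIs summed over all pools and lines span the lowest to the highest pool with at least 10 nuclei. Itga2 and Itgae peak in the Ntsr1 subcluster (358 and 351 CPM), Itgb1 in the Spp1 one (515 CPM) and Lama4 in the Tac1 one (412 CPM).

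Other chains had their highest level in other subclusters, some far above the next and some not. Lama4 was at 215 to 484 CPM (median 413) in the jugular-like subcluster led by the peptide genes Tac1 and Calca, and next at 242 CPM. Itgb1 was highest in the jugular-like subcluster led by Spp1, Kcna1 and Nefh, whose leading genes include neurofilament and fast potassium channel genes of large myelinated neurons, at 356 to 673 CPM (median 494) in 11 pools, wholly above the other 24. Itga7 was at 59.5 to 232 CPM (median 155) in the small subcluster led by Poteg and Kcnj6, in 7 pools, and at 97.1 CPM in the Spp1-led one. Itga11, near 0 in most subclusters (median 2.24 CPM), reached 27.6 to 140.5 CPM (median 75.5) in the one led by Gabrg1 and 49.3 CPM in the one led by Spon1. Itga3 was at 90.2 to 178 CPM (median 119.7) in the Spon1-led subcluster, with the next at 101 and 99.4 CPM. Lama5 was at 22.8 to 49.8 CPM (median 36.9) in the one led by Edn3, with the next at 28.8 and 27.9 CPM. Lama3 had its highest subcluster at 1.52 times the median of 137 CPM, but was at 37.9 CPM in the Spp1-led one. Lamc1 ran from 149.5 to 289.7 CPM.

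Another group of members was high in the same subclusters as glial markers. Over the 25 subclusters the Pearson correlation with the summed satellite glia markers was 0.98 for Itgb4, 0.98 for Itgb8, 0.97 for Itgav, 0.96 for Lama2, 0.93 for Itgb3 and 0.92 for Lamb1. It was -0.13 for Itga2, -0.28 for Itgae, -0.08 for Itga11 and -0.02 for Itga7. The points share pools, sublibraries and depth, so these values describe the subclusters and carry no test. The 3 subclusters with the highest Lama2, at 567, 524 and 386 CPM, had satellite glia marker sums of 633, 586 and 396 CPM, against 81.8 CPM of Lama2 and a sum of 38.8 CPM in the Ntsr1-led subcluster. The second of the 3 is the Ddc-led one with sympathetic or chromaffin-type markers. Whether neurons of those subclusters make Lama2, Itgb8, Itgb4 or Itgav was not tested.

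**Figure D5:**
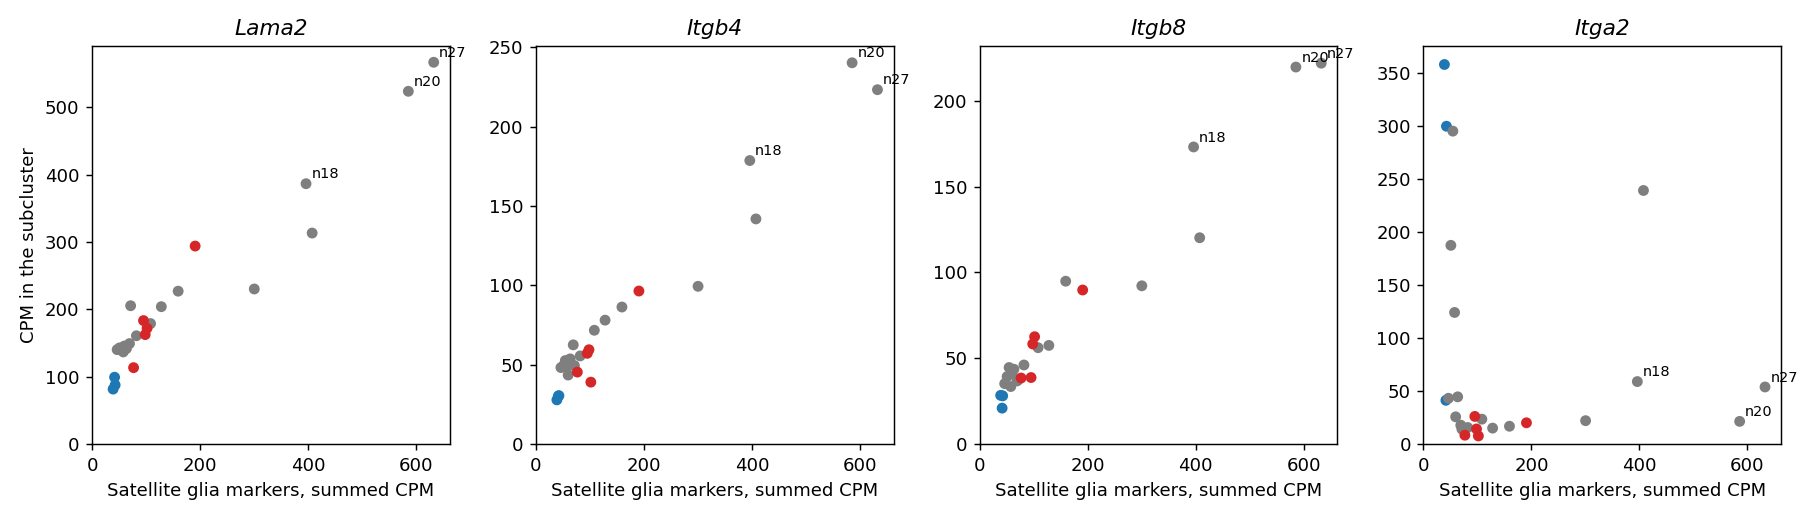
Level of Lama2, Itgb4, Itgb8 and Itga2 (vertical axes, CPM) against the summed satellite glia markers (horizontal axes, CPM) in the 25 neuron subclusters (points; blue nodose-like, red jugular-like, grey other). Lama2, Itgb4 and Itgb8 climb with the marker sum (Pearson r from 0.96 to 0.98), whereas Itga2 does not (r = -0.13); n18, n20 and n27 are the subclusters with the most Lama2.

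No integrin or laminin gene was called between right and left ganglia by edgeR's test in the 4 classes where side was tested (neurons, satellite glia, Schwann and endothelial nuclei). In neurons 0 of 26 tested members were called and 4 had an unadjusted p under 0.05, beside 0.122% called of 13928 genes (0.0862% higher and 0.0359% lower on the right) and 922 with an unadjusted p under 0.05. The 3 smallest p-values belonged to Itga7, Itgb4 and Itgav. Itga7 had a lowest, median and highest level of 25.2, 27.1 and 33.7 CPM in right pools and 25.8, 32.2 and 42.3 CPM in left pools (log2 difference -0.25 ± 0.10 SE, adjusted p = 0.65). For Itgb4 the values were 42.4, 63.1 and 72.6 CPM on the right and 40.3, 45.1 and 67.6 CPM on the left (log2 difference 0.29 ± 0.12 SE, adjusted p = 0.679). Itgav was at 25.3, 43.6 and 51.3 CPM on the right and 29.3, 31.6 and 43.0 CPM on the left (log2 difference 0.29 ± 0.12 SE, adjusted p = 0.679). The sides overlapped for all 3, and the satellite glia marker sum in neurons ranged from 71.3 to 144 CPM over pools, highest in MR2, MR1 and FR2.

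In the other classes the side comparison gave 0 calls among 23 tested members in satellite glia (0% of all genes called; 2 members with an unadjusted p under 0.05), 0 among 19 in Schwann nuclei (0.087%, of which 0.0725% higher and 0.0145% lower on the right; 3 members) and 0 among 19 in endothelial nuclei (0%; 2 members). The smallest p in each was for Itgae in satellite glia (log2 difference -0.30 ± 0.14 SE, adjusted p = 0.99), Itga2 in Schwann nuclei (log2 difference 0.54 ± 0.21 SE, adjusted p = 0.671) and Itga5 in endothelial nuclei (log2 difference -0.86 ± 0.30 SE, adjusted p = 0.855). Endothelial Itga5 had a lowest, median and highest level of 33.9, 41.2 and 62.7 CPM on the right and 59.8, 70.1 and 173 CPM on the left. The sides overlapped.

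Between labelled sexes no member was called in edgeR's fit either. In neurons 12 of 26 tested members had an unadjusted p under 0.05, beside 2590 of 13928 genes, 0% of which were called. The median log2 difference, female-labelled over male-labelled, was -0.22 for the members and 0.00 for all genes. Lama2 had the smallest p: its lowest, median and highest levels were 117, 132 and 189 CPM in the 6 female-labelled pools and 140.3, 178 and 224 CPM in the 6 male-labelled pools. The groups overlapped (log2 difference -0.39 ± 0.11 SE, adjusted p = 0.105). Itga9 and Itgb8 came next (log2 difference -0.46 ± 0.15 SE, adjusted p = 0.146 for Itga9 and log2 difference -0.33 ± 0.12 SE, adjusted p = 0.16 for Itgb8). DESeq2 called Lama2 alone (adjusted p = 0.0244), and edgeR without the filter on low counts called Lama2 and Lama4 (adjusted p = 0.00755 and 0.0414). Without ML1 and FL1, whose labels the Y-linked genes went against, edgeR called 0 members and the Lama2 difference was -0.41 (adjusted p = 0.158). The 3 pools with the highest satellite glia marker sums in neurons, named above, include 2 labelled male and 1 labelled female, and the part of glial RNA in the Lama2 difference was not tested.

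Outside neurons the labelled-sex comparison had 0 calls among 23 tested members in satellite glia (0.019% of all genes called; 0 members with an unadjusted p under 0.05), 0 among 19 in Schwann nuclei (0.029%; 2 members) and 0 among 19 in endothelial nuclei (0%; 0 members). The smallest p was for Itga1 in satellite glia (log2 difference 0.17 ± 0.10 SE, adjusted p = 0.758), Itga1 in Schwann nuclei (log2 difference 0.27 ± 0.13 SE, adjusted p = 0.938) and Itga2 in endothelial nuclei (log2 difference 0.51 ± 0.28 SE, adjusted p = 0.999). The interaction of side and labelled sex in neurons gave 0 calls among 26 members, beside 0% of all genes, with 4 members and 610 genes at an unadjusted p under 0.05. Its smallest p was for Lama5 (log2 difference -0.67 ± 0.21 SE, adjusted p = 1).

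The other genes of the pathway were taken as 4 lists. Of the integrin adaptors and signalling genes, which tie integrin tails to actin, 9 of 14 tested were called higher in Schwann nuclei than in neurons and 1 lower (median log2 0.56, beside -0.06 for all genes, of which 33% were called higher and 38.5% lower). Their largest differences were in Lims2 (log2 3.87) and in Pxn, the adaptor paxillin (log2 3.09). In satellite glia 10 of 14 were higher and 2 lower (median 0.65), with Pxn at 2.46, and in endothelial nuclei 9 of 14 were higher and 1 lower (median 0.48), with Pxn at 3.18. Of all genes, 40.1% were called higher and 34.5% lower in satellite glia, and 23.7% were called higher and 33% lower in endothelial nuclei.

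Basement membrane partners of laminins were called higher for 6 of 8 in Schwann nuclei and lower for 2 (median 0.99), led by Col15a1 (log2 4.03) and by Nid2, the linker nidogen (log2 3.98). In satellite glia 4 of 8 were higher and 4 lower (median 0.32), and in endothelial nuclei 4 of 8 and 2 (median 0.50), with Col18a1 at 3.46. Other integrin ligands were higher for 4 of 6 in Schwann nuclei, with Fn1, fibronectin, at 3.20, 4 of 6 in satellite glia, with the tenascin gene Tnc at 3.77, and 6 of 7 in endothelial nuclei, with the alpha 4 ligand Vcam1 at 5.74. Lower were 0, 1 and 0 in that order. The non-integrin laminin receptors were higher for 7 of 9 in Schwann nuclei and lower for 2 (median 1.32), with the dystrophin gene Dmd at 3.13 and dystroglycan, Dag1, at 2.58. In satellite glia 6 of 9 were higher and 1 lower, and in endothelial nuclei 3 of 9 and 3. Beside these counts, 71.6%, 74.6% and 56.7% of all genes were called against neurons in Schwann, satellite and endothelial nuclei.

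Between nodose-like and jugular-like neurons the lists gave 6 of 13 adaptors higher and 5 lower in nodose-like neurons (median -0.08), 4 of 8 basement membrane partners higher and 4 lower (median 0.84), 1 of 3 other ligands higher and 2 lower, and 0 of 9 non-integrin receptors higher and 4 lower (median -0.22). Of all genes in that contrast, 25.6% were called higher and 26.1% lower.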

How the data were processed

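Single-nucleus RNA of rat nodose ganglia was read with the Evercode version 2 split-pool kit, per the labels' protocols, in 8 sublibraries. The authors deposited 1 matrix of raw counts, whole UMIs per gene and nucleus, with a gene table and a nucleus table, and the sublibraries that GEO lists as samples do not separate the animals, so pools were taken from the pool name of each nucleus in the nucleus table (female pools were renumbered from 1). The submitters' processing notes name the build mRatBN7.2, R 4.3.2 and Seurat 4.1.3. No source used here states the aligner, the annotation, the strand setting or any earlier filter on nuclei.

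The filters removed 1 nucleus, for fewer than 300 genes or more than 5% mitochondrial UMIs. A doublet caller marked 2 nuclei (0.00544%), which were also removed; at so low a share it did not work here, and an alternative left out the 1817 nuclei with the highest scores. Nuclei were clustered with scanpy 1.11.5 (3000 variable genes without the 37 members, 30 principal components, Leiden resolution 1) and clusters were named from at least 3 of their markers. UMIs were summed per pool and class. edgeR 4.0.16 quasi-likelihood fits with TMM scaling and filterByExpr were run over all genes with Benjamini-Hochberg adjustment at 0.05: 8 class contrasts with the pool as a block (pools with at least 10 nuclei of both classes), and side and labelled sex as additive terms in 4 classes (pools with at least 20 nuclei), with their interaction in neurons. The scripts were tested on simulated data. Counts of UMIs limit precision: a level for 0 UMIs is given as the 3 counts it allows, and intervals cover counting error only.

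The members follow a rule on gene symbols; that rule, the marker lists and the partner lists were chosen with earlier results of these data known, and the rules that name clusters were settled after the clusters were seen. Any of the 37 genes could be named, but a few items are not reported here. Pool values were printed for those with a mean of at least 10 CPM in a class, full statistics in class contrasts went to up to 12 called members in each direction, largest change first, and to members of at least 50 CPM, and side and sex contrasts name the 3 smallest p-values in neurons and the smallest in each other class. Alternatives were DESeq2 1.42.0, limma-voom (limma 3.58.1), relative log expression scaling, no filter, each pool left out, ML1 and FL1 left out, other clustering, doublet scores, the replicate block, and, chosen after seeing the data, leaving out subclusters rich in glial markers.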

Additional observations from a re-analysis of the deposited data

Results flagged for a closer look

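Among 76 groups of 4 to 10 pool or sublibrary values examined, 6 had a value far from the others, where chance gives about 1 in 20. Neuronal Itga7 on the right was 33.7 CPM in MR2, against 25.2 to 27.8 CPM in the other right pools. Neuronal Lama2 in female-labelled pools was 189 CPM in FR2, against 117 to 142 CPM in the others, and FR2 also had the highest satellite glia marker sum in neurons among the female-labelled pools (116 CPM). Itgae in satellite glia on the left was 55.0 CPM in FL3, against 29.4 to 37.7 CPM elsewhere.

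The other 3 were in skeletal muscle, where 2 pools had few nuclei: 11 in ML2 and 13 in ML3. Itga11 was 69.5 CPM in ML3 and at most 1.00 CPM in the rest. Itgav was 0 CPM in ML2, against 134 to 174 CPM in the others, and Itgb4 was 80.2 CPM in ML2, against 203 to 253 CPM.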

How the results depend on the processing

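Of the alternative values for the named genes, 3272 kept the direction and side of the threshold, 65 fell short of it, 2 passed it newly and 3 changed sign. The sign changed under Leiden resolution 0.5 for Itgae between sides in satellite glia (0.22), Itga1 between labelled sexes in satellite glia (-0.013) and Itga2 in Schwann nuclei against satellite glia (0.13). The number of members called between labelled sexes in neurons was 0, and became 1 with DESeq2 and 2 with no filter on low counts. In muscle against neurons it was 16, and 10 to 16 with 1 pool left out, the 10 being without FR2. With 1 pool left out the number stayed at 0 for side, labelled sex and interaction, and ranged over 23 to 24 in satellite glia, 22 to 23 in Schwann, 24 in endothelial and 19 to 22 in mural-led nuclei against neurons, 18 to 20 for Schwann against satellite glia, 10 to 12 for mural-led against endothelial and 14 to 18 for nodose-like against jugular-like neurons. The calls of Itga11 (satellite glia, mural-led, muscle) and Itga7 (mural-led, nodose-like) were lost under several alternatives; the cause was not tested. Of the mean levels, 301 moved by less than 1 SD between pools and 23 by more, each of those when nuclei were averaged.

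The pool number as a replicate block left the side contrast at 0 members called in each of the 4 classes; over all genes it called 3 in place of 17 in neurons and 3 in place of 6 in Schwann nuclei. Same-numbered left and right pools deviated together (r above 0.1) in 1 of 6 pairs (-0.09 to 0.20), and 1 left pool matched its own number best. This is no evidence on whether same-numbered pools share rats, which the labels do not say, so the number was not taken to pair them. Over all genes, calls between labelled sexes in neurons went from 0 to 361 with DESeq2, 484 with no filter and 9 at Leiden resolution 0.5, and between sides from 17 to 63 with DESeq2 and 50 with no filter. No filter raised the labelled-sex calls from 2 to 98 in satellite glia, 2 to 17 in Schwann and 0 to 3 in endothelial nuclei, and the side calls from 0 to 8 in satellite glia, 6 to 17 in Schwann and 0 to 8 in endothelial nuclei. The side calls in Schwann nuclei were 1 with DESeq2, 2 with limma-voom and 3 at Leiden resolution 0.5, and the 2 labelled-sex calls fell to 0 under DESeq2, relative log expression and limma-voom in Schwann nuclei, and under both other resolutions and limma-voom in satellite glia. Without ML1 and FL1 the labelled-sex calls were 26 in neurons, 24 in satellite glia, 15 in Schwann and 2 in endothelial nuclei, with 0 members among them, and the side calls were 2 in neurons, 3 in Schwann and 1 in endothelial nuclei; without the highest doublet scores, side calls in Schwann nuclei were 10. Mural-led against endothelial nuclei had 741 calls, 2008 with no filter (23.3% higher in place of 48.0%) and 488 at Leiden resolution 2, and muscle against neurons had 1644, and 872 with DESeq2 (74.2% higher in place of 58.9%; 43.4% at Leiden resolution 2). The median of all genes moved by -0.15 (DESeq2), -0.19 (relative log expression) and -0.56 (no filter) in mural-led nuclei against neurons, and with no filter by -0.17 to -0.38 in the other class contrasts except nodose-like against jugular-like. Low depth limits the mural-led and muscle values most, at 214 and 598 nuclei.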

Other observations

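The glial classes were not uniform in these genes. Among the 4 Schwann subclusters, Lama2 was at 3688 to 4559 CPM and 3547 to 4638 CPM over pools in those led by Grin2b and Adarb2, 2719 to 3532 CPM in one with Prx, Bcas1 and Il16 among its leading genes, and 1901 to 3334 CPM in another with Prx, Bcas1 and also Grin2b among them. Itga6 was at 432 to 685 CPM in the first of the 2 with Prx and 204 to 442 CPM in the other, and at 339.9 to 802 CPM and 449 to 749.9 CPM in those led by Grin2b. Summed myelinating Schwann markers had another order than Lama2: they stood at 19981 and 7651 CPM in the 2 with Prx and 11107 and 8826 CPM in those led by Grin2b.

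Among the 6 satellite glia subclusters, Itgav was highest in the one led by Tnc and Fbln2 (623 to 1003 CPM) and the one led by Kctd12, Apoe and Acsbg1 (648 to 879 CPM), and lowest in the one led by Efemp1 (327 to 441 CPM). Lama4 (787 to 1252 CPM against 349 to 478 CPM), Itgb8 (679 to 1417 CPM against 308 to 531 CPM) and Itgb3 (111 to 231 CPM against 21.0 to 76.5 CPM) were also highest in the Tnc-led subcluster; Lama4 and Itgb8 were lowest in the Efemp1-led one, while Itgb3 was at 26.6 to 56.5 CPM in one led by Kctd12 and Ctxnd1, within the same range. Satellite glia marker sums were 3079 CPM in the Tnc-led subcluster and 1193 CPM in the Efemp1-led one. Lama3 was lower in the Tnc-led subcluster (0 to 82.4 CPM) than in the Efemp1-led one (72.9 to 133 CPM), with overlapping pools. These are levels of clusters drawn from the same nuclei, and the differences were not tested.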
